A study of Capra hircus with 40 samples.

Results

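The uterus was compared with the ovary at month 4 after birth in Jining gray goats (Capra hircus), by counting mature miRNAs. The comparison used all 5 uterus and all 5 ovary libraries that the labels place at month 4, which is 10 of the 40 libraries of the series, and every miRNA row of the count table. The other 30 libraries cover both tissues at day 1 and at months 2 and 6, with 5 libraries a group. All animals were females kept on 1 farm under the same conditions, and no genotype, treatment or surgery is given for any group, so tissue is the only labelled difference between the groups. Each library was made from total RNA of whole tissue of 1 numbered individual, and it is not given if equal numbers in the 2 tissues stand for 1 animal. Sequencing batches and dates are not given in the sources used here.

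A mature miRNA is a short RNA that guides a silencing complex to messenger RNAs with a matching site and lowers their output. Both arms of the precursor hairpin (written -5p and -3p) can be kept, and neighbouring hairpins are often cut from 1 transcript. Many miRNAs mark a cell type or a body region. The miR-202 hairpin is known from the somatic and germ cells of gonads, miR-143 and miR-145 from smooth muscle, miR-1, miR-133 and miR-206 from striated muscle, and miR-196 and miR-10 lie within the HOX gene clusters that pattern the body from head to tail. The ovary arises from the gonadal ridge and the uterus from the Müllerian duct, whose wall gains a smooth muscle coat.

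Library totals ran from 5889079 to 6897802 counts in ovary and from 5502588 to 7810745 in uterus, so 3 counts, the limit that a count of 0 allows, stood for 0.384 to 0.545 CPM (counts scaled to a fixed library total). Each level is the CPM of 1 library, and this limit covers counting error only. Of 427 miRNAs in the table, 350 passed the filter on low counts and were tested. Log2 differences are uterus minus ovary with their standard error (SE), and a miRNA was called where the Benjamini-Hochberg adjusted p of edgeR's quasi-likelihood test was under 0.05.

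Several libraries stood apart from their group. In the principal components of the 10 libraries, the component with the most variance (32.0%) was led by miR-34c-5p, miR-449a-5p and miR-200c and set ovary replicates 2 and 5 and uterus replicate 5 (14.1, 14.9 and 19.9) apart from the other 7, which lay between -13.4 and -3.87. The next component (26.0%) was led by miR-196b and both arms of miR-202 and divided the tissues, with ovary from -14.6 to -3.24 and uterus from 3.81 to 15.8. Ovary replicate 2 had its highest rank correlation with uterus replicate 5 (rho = 0.963, against at most 0.951 with an ovary library), and the same held for uterus replicate 5 (at most 0.938 with a uterus library). Uterus replicate 4 had let-7a-5p at 28359 CPM, against 67549 to 122967 CPM in the other uterus libraries, and let-7b-3p at 2209 CPM, against 39.6 to 411 CPM. Why these libraries stood apart was not tested.

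**Figure D1:**
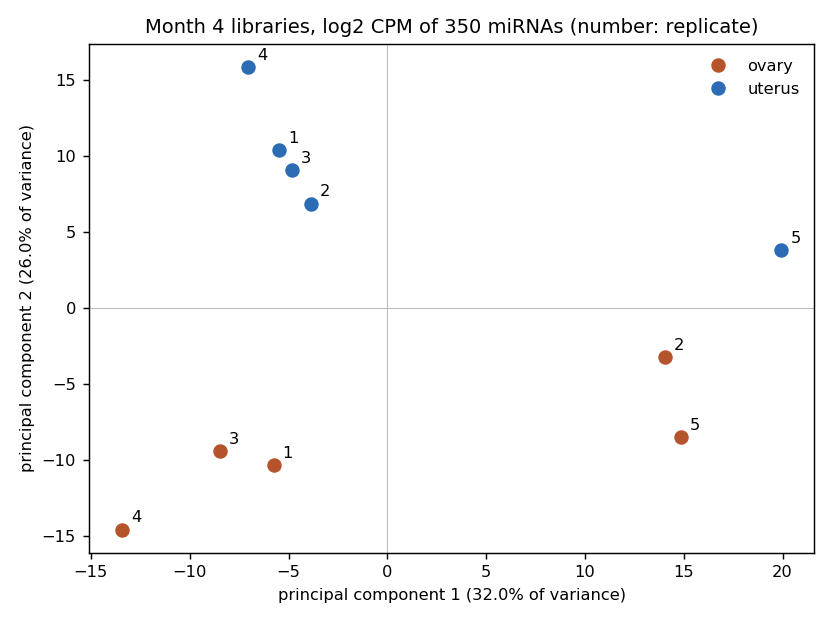
Principal components of log2 CPM over the 350 tested miRNAs in the 10 month 4 libraries; each point is a library, numbered by replicate. The vertical axis divides ovary (below 0) from uterus (above 0), and the horizontal axis sets ovary replicates 2 and 5 and uterus replicate 5 to the right of the other 7 libraries.

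The tissues differed in 17 of the 350 miRNAs (4.86%) at month 4. In uterus, 14 were higher (4.00%): 5 miRNAs of striated muscle, 2 of the smooth muscle cluster, miR-196b of the HOX clusters, miR-9-5p, miR-490, miR-216b, miR-365-3p, miR-181c-3p and miR-181d. The 3 that were lower (0.857%) were both arms of miR-202 and miR-450-5p. A further 38 passed an unadjusted p under 0.05 alone, which 55 of 350 did in all (15.7%). The split depended on the scaling, since the median over all tested miRNAs was 0.13 with TMM scaling, -0.05 with DESeq2 size factors and -0.11 with library totals: 11 were higher and 6 lower with size factors, and 8 were higher and 5 lower with totals. Without ovary replicate 2 and uterus replicate 5, 17 were called, 15 of them among the first 17; without uterus replicate 4, 12 were called, of which 10 were among them. Other fits moved the count further: 10 were called without ovary replicate 1 (7 among the 17), 10 without uterus replicate 3 (8), 11 without ovary replicate 5 (7), 23 without uterus replicate 5 (15), and 9 with only the 10 compared libraries in the fit (7). With DESeq2's own test 26 were called, 16 of them among the 17.

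**Figure D2:**
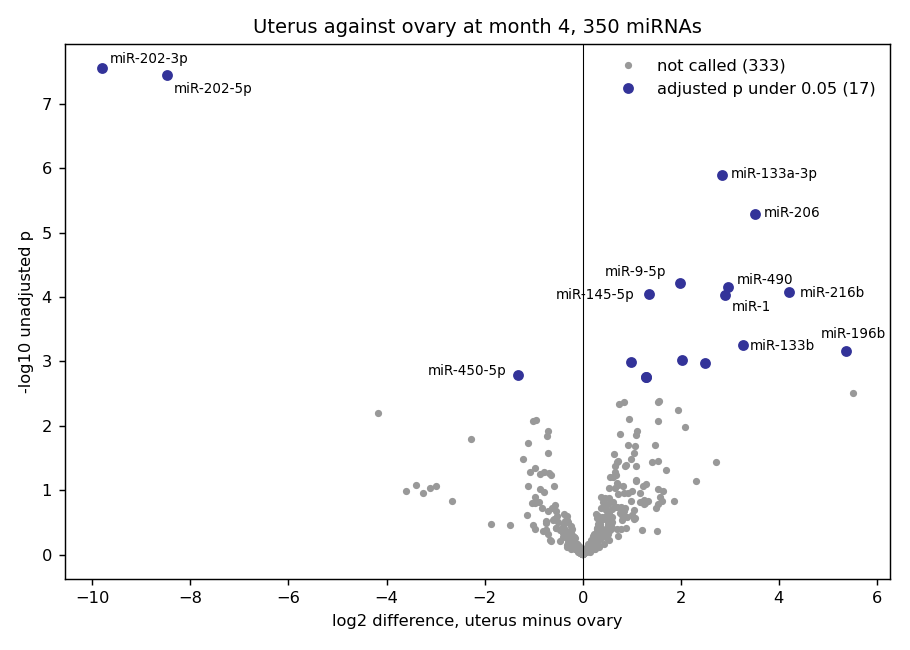
Log2 difference of uterus minus ovary at month 4 (horizontal) against -log10 of the unadjusted edgeR p (vertical) for the 350 tested miRNAs; the 17 called are in blue, and most of them are named. The arms of miR-202 lie alone at the far left, and 14 of the 17 calls lie to the right of 0.

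The strongest separation was that of miR-202, a hairpin of the gonads. miR-202-3p had 412, 78, 126, 614 and 412 counts in ovary replicates 1 to 5 (60.0, 13.2, 19.8, 98.1 and 59.7 CPM), and 1 count in uterus replicate 2 with 0 in the other 4. miR-202-5p had 441, 162, 316, 518 and 1741 counts in ovary (64.3, 27.5, 49.8, 82.7 and 252 CPM), and 6 counts in uterus replicate 4 with 0 in the other 4. Every ovary library lay far above every uterus library for both arms, also ovary replicate 2, which was the ovary library nearest to uterus in the principal components. Summed over the 5 libraries and set against the totals, miR-202-3p was 1729-fold higher in ovary (1642 against 1 count; 95% exact interval 310 to 68348), and miR-202-5p 558-fold higher (3178 against 6; 256 to 1521); these intervals cover counting error only. Ovary replicate 5 held 1741 of the 3178 counts, and without it miR-202-5p was 321-fold higher in ovary; without uterus replicate 4, which held all 6 uterine counts, it was at least 909-fold higher (3 counts over the group taken as the limit). Without uterus replicate 2 the same bound for miR-202-3p was 444-fold. The fitted log2 differences, -9.80 ± 1.22 and -8.48 ± 1.22 (both adjusted p = 6.29e-06), rest on so few uterine counts that they depend on the prior count. Without uterus replicate 2, miR-202-3p stood at -11.29, and without uterus replicate 4, miR-202-5p stood at -12.16. Both moved by more than the SE, which is no guide to the spread at such counts. In whole tissue, fewer cells of a type and less RNA per cell cannot be told apart.

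miR-202 was thus present in each of the 5 libraries labelled ovary. The other gonad and granulosa cell miRNAs of the list, which hold miR-21, miR-224, miR-320, miR-378 and miR-383, did not pass the test in either direction. Of the 10 list members present 8 were tested, the 2 arms of miR-202 were called, and the median over the 8 was -0.26 beside 0.13 over all miRNAs. miR-383, described in granulosa cells, had 35.7, 43.6, 21.9, 83.0 and 10.3 CPM in ovary and 23.6, 4.61, 38.6, 6.68 and 10.7 CPM in uterus. Its groups overlapped, and its difference was -1.03 ± 0.72 (adjusted p = 0.518). miR-21-5p, a miRNA of many tissues, was at 2258 to 5991 CPM in 4 ovary libraries and at 24943 CPM in ovary replicate 5, against 2557 to 6579 CPM in uterus.

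The miRNAs of striated muscle were the largest group on the uterine side. Of 8 present 6 were tested, all 6 were positive, 5 were called higher in uterus, and the median difference over the 6 was 2.87. Over all 350 miRNAs, 202 were positive, 14 were called higher (4.00%), and the median was 0.13. miR-1, the most abundant of them, had 204, 467, 374, 102 and 673 CPM in ovary replicates 1 to 5 and 2615, 1736, 2260, 3515 and 1334 CPM in uterus. The lowest uterus library lay well above the highest ovary library, and the difference was 2.90 ± 0.66 (adjusted p = 0.00362), or 2.27 without ovary replicate 4. miR-133a-3p, which is cut from a hairpin next to miR-1, had 70.8, 80.5, 93.2, 83.7 and 97.6 CPM in ovary and 509, 733, 772, 364 and 258 CPM in uterus. It was the most even of the group in ovary, its groups did not overlap, and it differed by 2.83 ± 0.49 (adjusted p = 0.000147).

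miR-206, a miRNA best known from skeletal muscle, had 11.8, 16.5, 17.5, 6.07 and 28.1 CPM in ovary and 71.6, 225, 290, 78.7 and 129 CPM in uterus. The groups were again apart, with a difference of 3.51 ± 0.66 (adjusted p = 0.000445). Its neighbour miR-133b was sparse, with 4, 6, 1, 1 and 4 counts in ovary and 35, 34, 57, 30 and 2 counts in uterus. Uterus replicate 5 fell among the ovary libraries, and the difference was 3.27 ± 0.86 (adjusted p = 0.0192). The other arm of miR-133a, miR-133a-5p, had 0, 1, 7, 8 and 8 counts in ovary and 29, 34, 35, 20 and 2 in uterus, again with replicate 5 inside the ovary range (2.49 ± 0.70, adjusted p = 0.0268). That call was kept without uterus replicate 5 and lost without any 1 of the other 9 libraries (lowest difference 1.86, without ovary replicate 1), and its adjusted p was 0.0614 with library totals. miR-499-5p, encoded within a myosin heavy chain gene, was not called and had 3.23 to 9.62 CPM in ovary and 0.73 to 15.7 CPM in uterus. miR-1 and miR-206 share much of their sequence, as do miR-133a and miR-133b. How reads matching both of a pair were assigned is not given in the sources used here. Beside the few counts of miR-133b, miR-133a-3p had 486, 474, 592, 524 and 673 counts in ovary. In uterus it had 3623, 5723, 5601, 2289 and 1420. The part of misassigned reads in the miR-133b row was not tested.

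Summed over the 8 striated muscle miRNAs, the ovary libraries held 199 to 808 CPM and the uterus libraries 1723 to 3981 CPM. Most of each sum was miR-1, at 102 to 673 CPM in ovary and 1334 to 3515 CPM in uterus. Its separation is therefore not one of every member, since miR-133b, miR-133a-5p and miR-499-5p overlapped. The smooth muscle sum is plotted beside the striated muscle sum and did overlap: 58463 to 191310 CPM in ovary against 108270 to 219860 CPM in uterus. In that list, of miR-143 and miR-145 arms, 2 of 4 tested members were called, 4 of 4 were positive, and the median was 1.12, beside 17 of 350 called, 202 of 350 positive and a median of 0.13 over all miRNAs. miR-145-5p, a regulator of the contractile state of smooth muscle, had 6477, 5992, 9524, 16609 and 9041 CPM in ovary and 19559, 21278, 18826, 25426 and 13931 CPM in uterus. In these CPM, which use library totals, ovary replicate 4 lay above uterus replicate 5, and all other ovary libraries lay below every uterus library. Divided by their TMM scaling factors (1.40 and 0.900), ovary replicate 4 lay below uterus replicate 5 and the groups were apart. The difference was 1.36 ± 0.31 (adjusted p = 0.00362), and its adjusted p was 0.0511 when library totals alone scaled the counts.

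The passenger arm miR-143-5p had 59.2, 98.8, 70.1, 128 and 123 CPM in ovary and 108, 217, 160, 156 and 316 CPM in uterus. Its lowest uterus library lay within the ovary range (1.29 ± 0.38, adjusted p = 0.0360). The call was lost with DESeq2 size factors (adjusted p = 0.0993), library totals (0.0962) and the DESeq2 test (0.0560), and in 8 of the 10 fits with 1 library left out, with a difference of 0.66 without uterus replicate 5. The abundant arm miR-143-3p, at 51452 to 81395 CPM in 4 ovary libraries and 181792 CPM in ovary replicate 5, against 88156 to 204850 CPM in uterus, was not called (0.93 ± 0.57, adjusted p = 0.441). miR-145-3p was not called either (0.95 ± 0.34, adjusted p = 0.107). Ovary replicate 5 was also high in miR-126-3p of endothelium, at 19000.4 CPM against 3200 to 4338 CPM in the other ovary libraries and 3430 to 6054 CPM in uterus. The part of that library in the smooth muscle values was not tested.

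**Figure D3:**
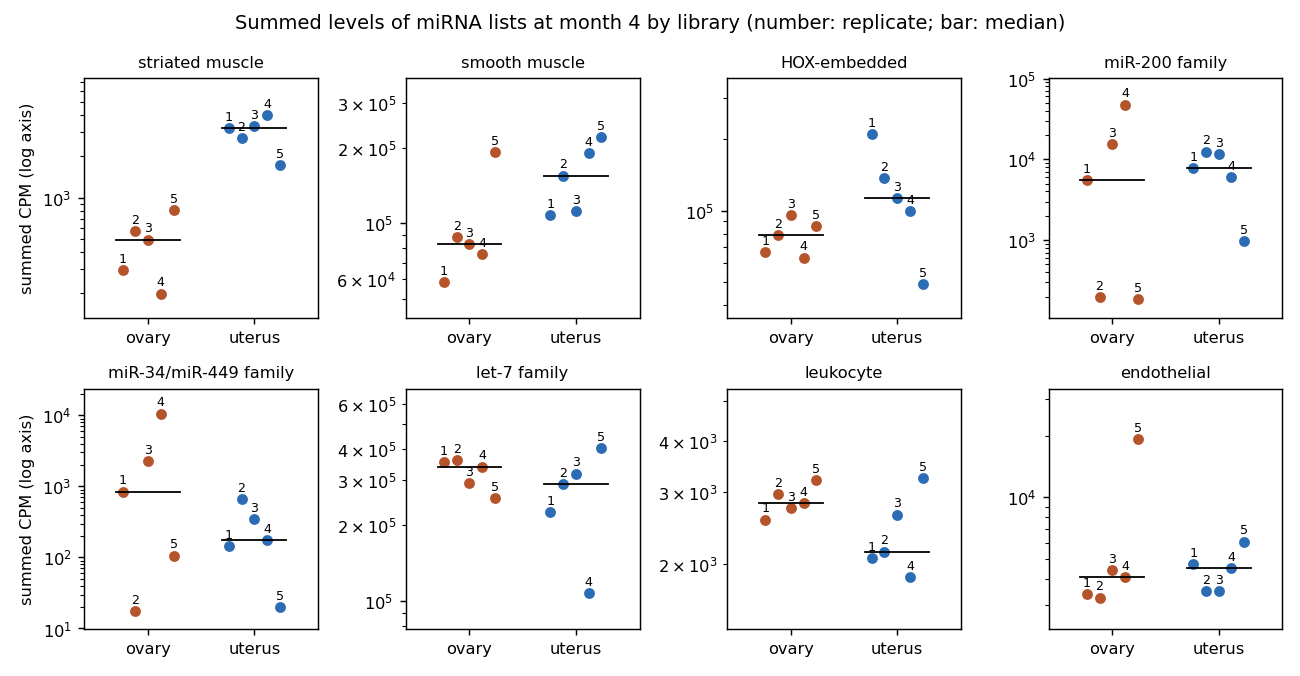
Summed CPM of 8 lists of miRNAs in each month 4 library (log axes; points numbered by replicate, bars are medians). The striated muscle sums, mostly miR-1, are apart between the tissues, at 199 to 808 CPM in ovary and 1723 to 3981 CPM in uterus. Those of the other 7 lists overlap, and the miR-200 and miR-34/miR-449 sums are low in ovary replicates 2 and 5 and uterus replicate 5.

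miR-196b, encoded within a HOX cluster, had the largest fitted difference of the calls in favour of uterus. It stood at 1.31, 84.9, 0.79, 1.76 and 2.75 CPM in ovary and at 1141, 1164, 1070, 437 and 170 CPM in uterus. Every uterus library lay above every ovary library, but ovary replicate 2 stood far above the other ovary libraries. The difference was 5.37 ± 1.45 (adjusted p = 0.0218); without ovary replicate 2 it was 9.23 (adjusted p = 0.000305), and without any 1 of the other 4 ovary libraries it was 4.63 to 4.65 and not called. Its relative miR-196a, from other HOX clusters, was also high in ovary replicate 2 (101 CPM, against 2.56 to 5.25 CPM in the other ovary libraries). In uterus miR-196a spread from 6.04 to 243 CPM, and it was not called (2.31 ± 1.24, adjusted p = 0.375).

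All 6 HOX-embedded miRNAs of the table were tested; all 6 were positive under each of the 3 scalings, 1 was called, and their median was 1.00. Over all 350 miRNAs, 202 (57.7%), 166 (47.4%) and 152 (43.4%) were positive with TMM, size factors and totals, and 14 were called higher. miR-10b-5p had 57960, 62800, 62500, 33622 and 73263 CPM in ovary and 177700, 104886, 90286, 80186 and 32079 CPM in uterus. Of the uterus libraries 4 lay above every ovary library and replicate 5 lay below every one. The difference of 0.92 ± 0.38 was not called (adjusted p = 0.185). The same shape was seen in miR-10b-3p, with 45.5 to 79.2 CPM in ovary, 113 to 143 CPM in 4 uterus libraries and 27.3 CPM in replicate 5 (1.08 ± 0.42, adjusted p = 0.150). miR-10a-5p was at 0.51 ± 0.72 (adjusted p = 0.802).

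Of the other miRNAs higher in uterus, miR-9-5p and miR-490 were moderate in level. miR-9-5p, best known from the nervous system, had 104, 109, 174, 204 and 117 CPM in ovary and 334, 539, 544, 682 and 243 CPM in uterus. The groups did not overlap, and the difference was 1.99 ± 0.44 (adjusted p = 0.00362). Its sparse other arm, miR-9-3p, had 0.17 to 1.44 CPM in ovary and 1.28 to 3.66 CPM in uterus and was not called (1.95 ± 0.66, adjusted p = 0.0858). In the neural and neuroendocrine list miR-9-5p was the 1 call among 9 tested, with a median of 0.36 and sums that overlapped (909 to 1634 CPM in ovary and 1037 to 2035 CPM in uterus), and miR-124a and miR-137 were too low to be tested. miR-490, which lies within a muscarinic receptor gene in mammals, had 17.2, 4.75, 8.03, 16.5 and 3.33 CPM in ovary and 49.6, 52.2, 87.3, 142 and 2.54 CPM in uterus. Uterus replicates 1 to 4 lay above every ovary library and replicate 5 below every one (2.96 ± 0.66, adjusted p = 0.00362).

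miR-365-3p, which showed the smallest called difference, had 122, 105, 112, 175 and 164 CPM in ovary and 204, 198, 247, 225 and 236 CPM in uterus. Its groups did not overlap, although the gap was narrow (0.98 ± 0.27, adjusted p = 0.0268), and its adjusted p was 0.0860 with DESeq2 size factors and 0.263 with library totals. The neighbours miR-181c and miR-181d, of a family with broad expression in lymphoid and other tissue, were called in 1 arm each. miR-181d had 54.2, 24.5, 61.1, 53.02 and 27.6 CPM in ovary and 160, 105, 107, 75.8 and 28.2 CPM in uterus, so that 4 uterus libraries lay above every ovary library (1.29 ± 0.38, adjusted p = 0.0360; 0.0726 with size factors and 0.188 with totals). miR-181c-3p had 6, 3, 17, 15 and 10 counts in ovary and 48, 31, 37, 65 and 1 count in uterus (2.03 ± 0.56, adjusted p = 0.0268; 0.0795 with totals). The arm miR-181c-5p was not called (1.54 ± 0.55, adjusted p = 0.107).

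miR-216b, a miRNA known from the exocrine pancreas, was near the detection limit. It had 2, 0, 1, 2 and 0 counts in ovary and 1, 2, 18, 53 and 9 counts in uterus, and 53 of its uterine counts came from replicate 4. The groups overlapped, and the fitted difference of 4.21 ± 0.95 (adjusted p = 0.00362) was 3.51 without ovary replicate 5, and 2.89 with an adjusted p of 0.0597 without uterus replicate 4. The levels of miR-216b, miR-133b, miR-133a-5p and miR-181c-3p were under a mean of 10 CPM, where a few reads move the value. For the last 3 of these, uterus replicate 5 lay within or below the ovary range, as it did for miR-490 and miR-181d.

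**Figure D4:**
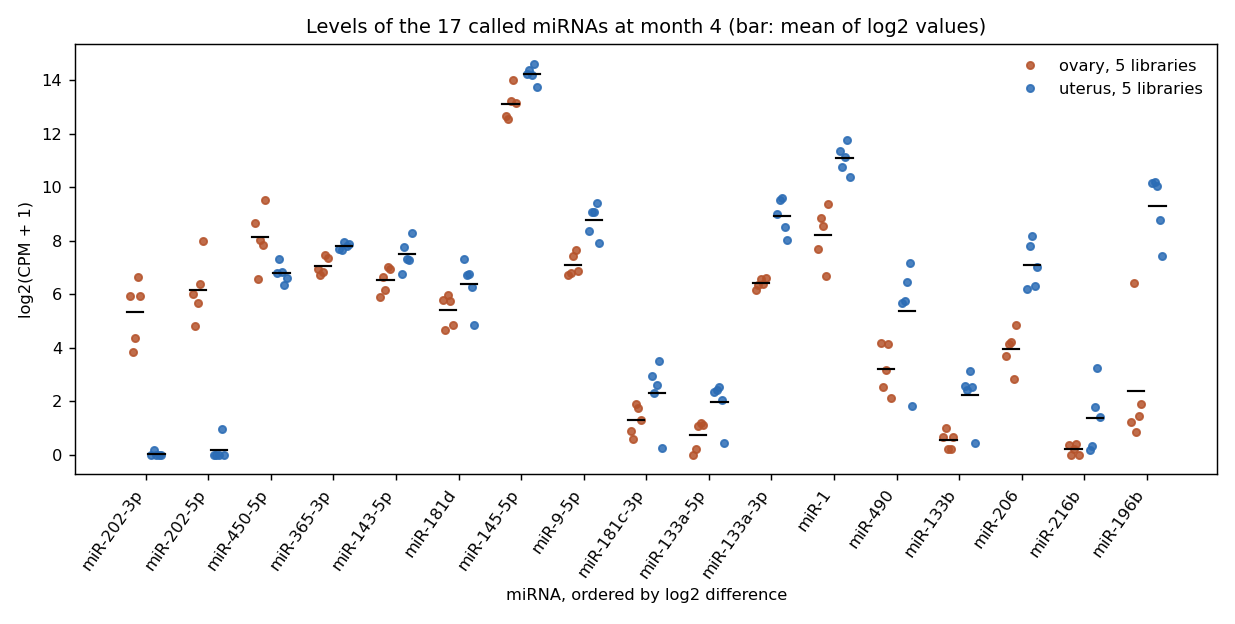
Level of each of the 17 called miRNAs in the 5 ovary and 5 uterus libraries of month 4, as log2(CPM + 1), ordered by the fitted log2 difference; the bar is the mean of the log2 values. The arms of miR-202 are near 0 in uterus, and 1 ovary library stands far above the others for miR-196b.

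miR-450-5p was the remaining miRNA lower in uterus. It belongs to the X-linked cluster of miR-424 and miR-503, and had 405, 94.6, 262, 227 and 734 CPM in ovary and 110, 158, 114, 80.0 and 96.5 CPM in uterus. Ovary replicates 1, 3, 4 and 5 lay above every uterus library and replicate 2 lay within the uterus range (-1.32 ± 0.39, adjusted p = 0.0360). Of the 6 members of that cluster tested, 1 was called and 5 were negative, or 6 with DESeq2 size factors or library totals, and the median was -0.48. Over all 350 miRNAs, 3 were called lower (0.857%) and the median was 0.13. Of the 350, 202 were positive with TMM scaling, 166 with size factors and 152 with totals. miR-424-3p had 478, 220, 216, 405 and 291 CPM in ovary and 88.3, 216, 162, 72.2 and 108 CPM in uterus and was not called (-1.12 ± 0.45, adjusted p = 0.179). Next in order of p among miRNAs at 10 CPM or more and lower in uterus, and not called, were miR-148a-5p (-0.94 ± 0.34) and miR-455-3p (-1.01 ± 0.36), both at an adjusted p of 0.107. miR-148a-5p was called with size factors (adjusted p = 0.0167), library totals (0.0406) and DESeq2 (0.00289), and in 7 of the 10 fits with 1 library left out. miR-455-3p was called with size factors (0.0497) and DESeq2 (0.0185), and in 1 of the 10.

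In CPM scaled by library totals, the groups did not overlap in 14 of the 350 miRNAs (4.00%). Uterus lay above ovary in 6 (1.71%) and below it in 8 (2.29%). Of the 17 calls 8 were among these 14: both arms of miR-202, miR-133a-3p, miR-206, miR-1, miR-9-5p, miR-196b and miR-365-3p. The other 6, chosen after their values were seen, were all lower in uterus: miR-125b-3p, miR-211, miR-22-3p, miR-30a-3p, miR-425-3p and miR-455-3p. They were not called in the fit of all 40 libraries, which used TMM scaling. Its factors were 1.40 and 1.43 for ovary replicates 4 and 5, and 0.852 to 1.05 for the other month 4 libraries. They lower the scaled levels of ovary replicates 4 and 5, and the lack of overlap in these 6 depends on the scaling for all but miR-22-3p. Divided by these factors, the CPM of the groups overlap for each of the others, and those of miR-22-3p stay narrowly apart. Overlap given elsewhere for other miRNAs is also that of CPM by library totals and can change in the same way. miR-455-3p, of a hairpin within a collagen gene, had 1231, 660, 676, 904 and 535 CPM in ovary and 361, 504, 398, 259 and 256 CPM in uterus. miR-22-3p had 344 to 770 CPM in ovary and 180 to 282 CPM in uterus. miR-125b-3p had 1415 to 2254 CPM in ovary and 647 to 1298 CPM in uterus. It was called with DESeq2 size factors, with DESeq2's own test and without the 7 doubted libraries described below. With 1 library left out, it was called without ovary replicate 1, 3, 4 or 5 and without uterus replicate 3 or 5. miR-425-3p was called with DESeq2's own test and without ovary replicate 1 or 5 or uterus replicate 5. miR-22-3p was called with library totals.

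Position in the goat genome was read from RefSeq's annotation of the assembly ARS1.2 for neighbours only, since the build behind the counts is not given in the sources used here. The 17 calls came from 15 hairpins, all of which were found there. For 8 of them the nearest annotated miRNA gene was itself the hairpin of a call, with 0 other genes between: miR-1 with miR-133a, miR-206 with miR-133b, miR-143 with miR-145, and miR-181c with miR-181d. Over all tested hairpins, 234 of 236 were found, 10 of them (4.27%) lay next to the hairpin of a call in this way, and 54.3% had some miRNA gene as next neighbour with 0 genes between, beside 66.7% of the 15. miR-450 lay next to miR-542, and miR-216b next to miR-217. The limit given above for the shared sequence of miR-133a and miR-133b also bears on the pair of miR-206 with miR-133b. Of 114 hairpins with both arms tested, 81 had differences of the same sign in both arms, and all 7 of those with a called arm did.

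The epithelial lists separated libraries more than tissues. The miR-200 family, which holds epithelial cells in their state, summed to 5575, 196, 15473, 47549 and 185 CPM in ovary replicates 1 to 5 and to 7811, 12463, 11640, 6056 and 963 CPM in uterus. Ovary alone ran from far below to far above every uterus library. None of its 5 members was called by edgeR, 1 of them (miR-141, sparse at 0 to 4.79 CPM in ovary and 0.18 to 27.8 CPM in uterus) passed an unadjusted p under 0.05, and the median was 0.14, or -0.24 with library totals. miR-200b was at -0.66 ± 1.21, and its sign turned to 0.21 without ovary replicate 4.

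The miR-34/miR-449 family, known from multiciliated epithelium such as that of the oviduct, followed the same libraries. Its sums were 844, 17.7, 2254, 10598 and 106 CPM in ovary and 144, 663, 345, 177 and 20.0 CPM in uterus. All 9 tested members were negative under each of the 3 scalings, with a median of -2.99, yet 0 were called by edgeR and 0 passed an unadjusted p under 0.05. miR-34c-5p ranged from 2.89 to 5967 CPM in ovary and from 6.00 to 266 CPM in uterus (-3.26 ± 2.00, adjusted p = 0.441). miR-449a-5p was at 830 CPM in ovary replicate 4 and at 0.14 to 54.0 CPM in the other ovary libraries. The miR-183-96-182 cluster had 0 of 3 members called and a median of 0.24, which was -0.05 with library totals.

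Markers of stroma, blood and vessel cells gave no call by edgeR. The fibroblast and stroma list of miR-199 and miR-214 had 5 of 5 tested members positive under each scaling (202 of 350 over all miRNAs with TMM), a median of 0.46 and overlapping sums of 12528 to 20206 CPM in ovary and 9140 to 26222 CPM in uterus, with 1 member at an unadjusted p under 0.05. Leukocyte miRNAs summed to 2569 to 3206 CPM in ovary and 1861 to 3248 CPM in uterus, with 0 of 9 called and a median of -0.05. Red blood cell miRNAs summed to 12.4 to 62.3 CPM in ovary and 13.9 to 174 CPM in uterus, the highest value being uterus replicate 5. The endothelial sums were 3248 to 19248 CPM in ovary and 3493 to 6092 CPM in uterus, and the liver miRNA miR-122 was at most 6.96 CPM in any library. The part of these cell types in the called differences was not tested.

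The large families that follow development gave no call by edgeR in the fit of all 40 libraries. Of the let-7 family 0 of 16 were called (median -0.06), and of miR-17-92 with its paralogous clusters 0 of 19 (median 0.00). Of the miR-29 family 0 of 5 were called (median -0.22). In these 3 lists 0 were at an unadjusted p under 0.05. Over all 350 miRNAs, 17 were called (4.86%), 55 were at an unadjusted p under 0.05 (15.7%), and the median was 0.13. The imprinted DLK1-DIO3 cluster had 50 of 64 members tested, 0 called and 7 at an unadjusted p under 0.05. Of these 50, 36 were positive with TMM scaling (median 0.35), 29 with size factors and 26 with totals, beside 202, 166 and 152 of all 350. The 10 miRNAs with the highest mean CPM were the same 10 in both tissues, and 0 of them were called. They were led by miR-143-3p, at 89131 ± 53100 CPM in ovary and 136222 ± 49425 CPM in uterus (SD, n = 5). miR-143-3p had the most counts in 3 uterus libraries and 1 ovary library, and let-7a-5p in 3 ovary libraries.

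The 17 calls were then followed to the other ages, which are separate libraries. There the tissues differed in 17 miRNAs at day 1 (4.86%), 89 at month 2 (25.4%) and 31 at month 6 (8.86%). Of the month 4 calls, 5 were also called at day 1 (29.4% of each list), 11 at month 2 (64.7% of the month 4 calls and 12.4% of those of month 2) and 11 at month 6 (64.7% and 35.5%). The sign was the same for 16 of the 17 at day 1 and for all 17 at months 2 and 6. Those called at all 4 ages were miR-202-3p, miR-202-5p, miR-206 and miR-9-5p. miR-206 was at 4.34, 4.33 and 4.31 at day 1 and months 2 and 6, beside 3.51 at month 4.

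Only miR-196b and miR-143-5p were called at month 4 and at no other age. For miR-196b the uterus medians were 1365, 1275 and 1240 CPM at day 1 and months 2 and 6. At month 4 the median was 1070 CPM, with libraries from 170 to 1164 CPM. Its ovary libraries ran from 4.18 to 537 CPM at day 1 and from 0.70 to 543 CPM at month 2. At month 6 they ran from 1.74 to 388 CPM. The differences of miR-196b at day 1 and months 2 and 6 were 2.11, 2.91 and 2.76. miR-143-5p was at 0.62, 0.86 and 0.93 beside 1.29 at month 4.

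A test of the difference itself, the interaction of tissue with age, called 0 of 350 miRNAs against day 1, month 2 or month 6 (0% in each) by edgeR, with smallest adjusted p of 0.113, 0.149 and 0.814. At an unadjusted p under 0.05 there were 29 (8.29%), 57 (16.3%) and 13 (3.71%). The Wald test of DESeq2 called 1, 0 and 0, the 1 being miR-215-5p against day 1, at under 6 CPM in every month 4 library (edgeR adjusted p = 0.113). Among the 17 calls, 2 were at an unadjusted interaction p under 0.05 against day 1 (miR-133a-3p and miR-365-3p), 1 against month 2 (miR-365-3p) and 1 against month 6 (miR-9-5p), and none of these passed adjustment over the 350 miRNAs. The tissue difference of miR-365-3p was -0.01 at day 1, 0.04 at month 2, 0.98 at month 4 and 0.93 at month 6. Its ovary and uterus medians were 29.4 and 31.7 CPM at day 1, 120 and 162 CPM at month 2, and 114 and 258 CPM at month 6. These medians use library totals, whereas the differences use TMM scaling, and at month 2 the medians lie further apart than the fitted 0.04. At month 4 its edgeR adjusted p was 0.0860 with size factors and 0.263 with totals. The part of the scaling in its change with age was not tested. The difference of miR-133a-3p was 1.14 at day 1 beside 2.83 at month 4, and that of miR-9-5p was 3.96 at month 6 beside 1.99.

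**Figure D5:**
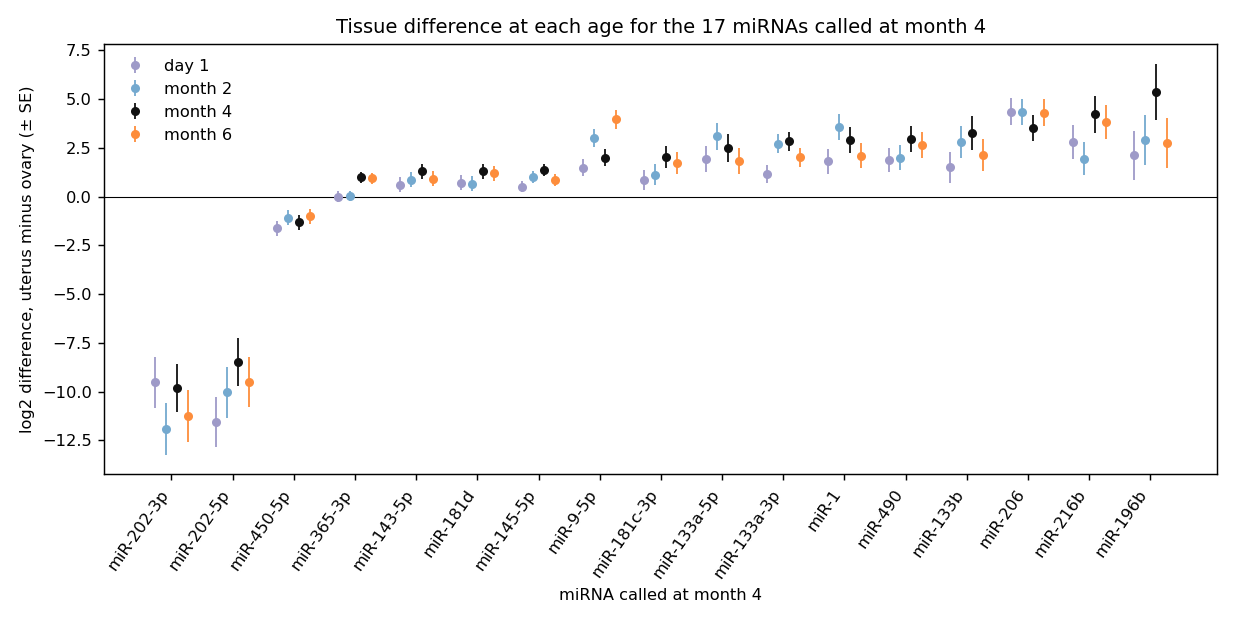
Log2 difference of uterus minus ovary, with its SE, at each of the 4 ages for the 17 miRNAs called at month 4 (black). The signs at months 2 and 6 are those of month 4 for all 17. With the TMM scaling used here, miR-365-3p is near 0 at day 1 and month 2.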

How the data were processed

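Small RNA libraries were counted by the authors, who deposited whole-number read counts per mature miRNA and library, with no normalization. Cutadapt 1.16, Bowtie 1.0.1 and RSEM 1.3.0 were used per the submitters' processing notes. The build, the annotation of miRNAs and the treatment of reads that match several of them are not given in the sources used here.

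The counts of all 40 libraries were fitted together in R 4.3.3 with edgeR 4.0.16, with 8 groups of tissue and age, filterByExpr, TMM scaling and the quasi-likelihood test. The 40 libraries share 1 estimate of the spread (common biological coefficient of variation 0.628). The 7 tests were uterus against ovary at each age and 3 interactions. Two-sided p-values were adjusted by Benjamini-Hochberg over the 350 miRNAs of each test. The SE is the absolute log2 difference divided by the square root of F. CPM used library totals; principal components and rank correlations used TMM-scaled log2 CPM with a prior count of 2. The pipeline was tested on simulated data. Library totals at month 4 ran from 5502588 to 7810745 counts.

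The miRNAs named were those called at 10 CPM or more on average, up to 12 in each direction, filled to 5 by p where fewer were called, with list members and the 10 most abundant of each tissue added. Calls under 10 CPM are named with their counts. The comparison, the 19 lists and the rule were chosen with earlier results of these data known. The list of stratified and glandular epithelium had 0 members in the table.

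Same-numbered ovary and uterus libraries of month 4 deviated from their group means with r of 0.21, -0.28, 0.35, 0.02 and 0.32. The numbers were not taken to pair them. With 5 libraries a group, several of which stood apart, these values cannot exclude shared animals. The alternatives were size factors or the Wald test of DESeq2 1.42.0, library totals, no filter, a filter of 10 CPM in 5 libraries, a block for the replicate number, a fit of the compared groups only and each replicate left out. Left out together, chosen after the data were seen, were 5 libraries with low let-7a-5p and high let-7b-3p, these and another 2, or ovary replicate 2 with uterus replicate 5 of month 4.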

Additional observations from a re-analysis of the deposited data

Results flagged for a closer look

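Among 104 groups of 5 libraries, formed by the called and other named miRNAs in each tissue at month 4, 22 held a library far from the other 4 by Dixon's gap ratio (above 0.71). Chance flags about 1 in 20 groups of normally distributed values, but CPM is not so distributed, the miRNAs of a library are not independent, and in 3 of the 22 the other 4 libraries were at 0, which fixes the ratio, so the number is not read against that rate.

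Uterus replicate 4 stood apart in 7, each time above the rest: miR-202-5p at 0.954 CPM, miR-216b at 8.43 CPM, miR-148a-5p at 139 CPM, miR-148a-3p at 70499 CPM, miR-141 at 27.8 CPM, miR-136-5p at 13.04 CPM and let-7b-3p at 2209 CPM. Ovary replicate 5 stood above the rest in 5: miR-202-5p at 252 CPM, miR-143-3p at 181792 CPM, miR-21-5p at 24943 CPM, miR-126-3p at 19000.4 CPM and miR-136-5p at 0.290 CPM. Ovary replicate 4 was highest for miR-34c-5p at 5967 CPM, miR-34b-3p at 3288 CPM, miR-449a-5p at 830 CPM and miR-200c at 6968 CPM. In ovary replicate 2 both HOX-embedded relatives were raised, miR-196b at 84.9 CPM and miR-196a at 101 CPM.

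Uterus replicate 5 was lowest for miR-10b-3p at 27.3 CPM and highest for the red blood cell miRNA miR-451-5p at 172 CPM. Uterus replicate 2 held 0.128 CPM of miR-202-3p, which was 1 count, and 2.94 CPM of miR-190b, against 0 to 0.281 CPM in the other uterus libraries.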

How the results depend on the processing

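At month 4, where 17 were called, 26 were called with DESeq2 (16 of the 17 among them), 11 with the replicate number as a block (all 11 among the 17), 9 with only the 10 libraries compared (7 among the 17) and 26 without the 7 doubted libraries (16 among the 17). These 7, left out after the data were seen, include uterus month 4 replicate 4 and 6 libraries of other ages, which enter through the shared spread. Leaving out 1 library gave 10 to 23 calls: 10 without ovary replicate 1 or uterus replicate 3, 11 without ovary replicate 5 and 23 without uterus replicate 5. In each of these 10 fits 6 calls were kept, namely miR-202-3p, miR-202-5p, miR-133a-3p, miR-206, miR-490 and miR-1. Calls were lost in 1 fit for miR-216b, 2 for miR-9-5p, 4 for miR-145-5p, 5 for miR-133b, miR-196b and miR-450-5p, 7 for miR-181c-3p, 8 for miR-365-3p and miR-143-5p, and 9 for miR-133a-5p and miR-181d. With only the compared libraries in the fit, miR-490 was at an adjusted p of 0.0789. In the block fit the calls lost were miR-133b, miR-181c-3p, miR-365-3p, miR-133a-5p, miR-450-5p and miR-143-5p; 2 of the 5 ovary libraries correlated best with the uterus library of their own number. No call changed sign under any setting run. The sign of miR-200b, not called at -0.66, turned to 0.89 in the block fit and to 0.21 without ovary month 4 replicate 4, and with 1 library left out it ran from -1.23 to 0.21.

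At day 1 the count of 17 was 29 with library totals, 38 with DESeq2, 26 without 5 libraries of low let-7a-5p, 60 without the 7, and 14 to 27 with 1 library left out. At month 2 the count of 89 ran from 64 to 91 with 1 left out. At month 6 the count of 31 was 20 without a filter, 14 with only the groups compared, 7 without these 5, and 12 to 35 with 1 left out. The interaction counts of 0 were 1 with DESeq2 against day 1, and against month 6 they were 1 without these 5 and 2 without the 7. With 1 library left out they ran from 0 to 3 against day 1, from 0 to 0 against month 2 and from 0 to 3 against month 6. The depth limited miR-216b and the uterine level of miR-202.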

Other observations

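The rows of miR-193a and miR-193b-3p were nearly the same in the table: over the 40 libraries their totals were 10709 and 10869 counts, and no library differed by more than 4.55%. At month 4 they stood at 1.54 ± 0.51 and 1.55 ± 0.51 (uterus minus ovary, both adjusted p = 0.0711 by edgeR), so they carry 1 measurement. miR-193b-3p had 23.5, 16.8, 19.5, 44.6 and 35.1 CPM in ovary and 51.5, 54.3, 74.6, 103 and 44.3 CPM in uterus. In these CPM by library totals, the lowest uterus library lay just under the highest ovary library. Divided by the TMM factors, the groups were apart. Both were called with only the compared libraries in the fit and with DESeq2.

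Among the large fitted differences not called by edgeR in the fit of all 40 libraries were those of miR-136-5p and miR-190b. Both were called with DESeq2's own test. miR-136-5p was also called without uterus replicate 1, 2 or 5, and miR-190b without uterus replicate 2. miR-136-5p had 82 counts in uterus replicate 4 and 0 to 3 in the other 9 libraries (5.51 ± 1.74, adjusted p = 0.0613). miR-190b had 17.8, 0.51, 20.8, 38.0 and 3.33 CPM in ovary and 0 to 2.94 CPM in uterus (-4.18 ± 1.44, adjusted p = 0.0921). Ovary replicates 2 and 5, which were low in miR-190b, were also the ovary libraries low in the miR-200 and miR-34/miR-449 families.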
